A study of Mus musculus with 9 samples.

Results

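The unfolded protein response was followed through 10 genes, Hspa5, Dnajb9, Sdf2l1, Herpud1, Edem1, Ern1, Xbp1, Atf6, Atf4 and Ddit3, taken by symbol from a table of 54532 mouse genes. The symbols matched 11 rows, since Ddit3 had 2 of them. The second Ddit3 row, a 105-base model lying inside the first, was at 0 in all 9 samples and was not tested, so 10 rows remained among the 12746 genes tested. Of the genes listed, 28859 were above 0 in at least 1 sample.

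The samples were dendritic cells (DCs) sorted from mouse spleen, 3 in each of 3 groups. N-mDCs were mature conventional DCs (cDCs) of healthy mice, labelled with no treatment. T-DCs were CD11c+ cells with low MHCII, labelled immature DCs, and T-mDCs were mature cDCs; both came from mice with T-cell acute lymphoblastic leukemia (T-ALL), a leukemia of immature T cells. The leukemia was driven by a retrovirus carrying the active intracellular part of Notch1 with GFP, and GFP+ leukemia cells were passed into mice that were not irradiated. By the study's methods the mice were female C57BL/6J or C57B6.SJL animals of 6 to 8 weeks, spleens were taken on day 15, and T-DCs were sorted as negative for GFP and for lineage markers that included CD3 and NK1.1. Recipients keep their own blood cells in this model, and only spleen was sequenced. The sources used here do not say whether the 3 samples of a group came from separate mice or pools, so p-values measure only the spread between these samples.

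The endoplasmic reticulum (ER) folds secreted and membrane proteins, and the unfolded protein response is the set of signals that leave it when folding falls behind. The sensor IRE1, encoded by Ern1, splices Xbp1 mRNA to give the transcription factor XBP1s; the sensor PERK slows translation and favours ATF4, which raises CHOP, encoded by Ddit3; and the sensor ATF6 is cut in the Golgi to release a transcription factor. Their targets include chaperones such as BiP (Hspa5) and proteins of ER-associated degradation, which returns misfolded proteins to the cytosol for destruction. cDCs, cDC1s above all, are known for steady IRE1 activity. Gene-level RNA values show none of the splicing, phosphorylation or cleavage steps, so only transcript levels are described.

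Promoters are shown for Hspa5 and Herpud1, a pair of effector genes that fell in T-DCs and the only members with a match to a searched motif. The RefSeq table (build GRCm38.p6) held the window from 250 bases before to 50 after the start for 9 of the 10 genes, Atf6 being the exception. The 4 motifs searched on both strands were the ER stress response element (ERSE: CCAAT, any 9 bases, CCACG), ERSE-II (ATTGG, any 1 base, CCACG), the core of the unfolded protein response element (UPRE core: TGACGTG) and the C/EBP-ATF response element (CARE: TGATGNAA). Capitals mark the matches, and the 250 bases before the start are printed, chr2:34771840-34772089 and chr8:94386179-94386428, both on the plus strand.
Hspa5: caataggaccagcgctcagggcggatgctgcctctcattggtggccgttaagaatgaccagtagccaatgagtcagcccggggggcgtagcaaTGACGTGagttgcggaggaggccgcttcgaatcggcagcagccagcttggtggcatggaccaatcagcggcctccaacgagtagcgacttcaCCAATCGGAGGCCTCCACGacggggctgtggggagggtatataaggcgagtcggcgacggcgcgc
Herpud1: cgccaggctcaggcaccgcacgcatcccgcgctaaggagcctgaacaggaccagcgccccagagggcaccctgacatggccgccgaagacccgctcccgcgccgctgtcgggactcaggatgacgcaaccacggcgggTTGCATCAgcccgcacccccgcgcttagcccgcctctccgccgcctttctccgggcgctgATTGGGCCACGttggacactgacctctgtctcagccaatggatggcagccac

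With the RefSeq start as position 0, Hspa5 held a UPRE core at -157 to -151 and an ERSE at -65 to -47. Herpud1 held a CARE at -112 to -105, read on the minus strand, and an ERSE-II at -52 to -42. No matches overlapped within either promoter. Of 32851 promoters in the table, 0.119% held an ERSE, 0.0365% an ERSE-II, 2.01% a UPRE core and 3.97% a CARE. The other 7 members with a window held none of these letters, which says nothing of the factors that bind there. RefSeq and the table of values place the starts differently, the table's Hspa5 gene beginning at base 34771970 of chromosome 2.

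The RNA of these libraries was unequal in ways that bear on the results. Reads on genes ranged from 15360815 to 18440913 per sample, and the 10 genes drew from 275 to 24686 reads each in a sample. T-DC samples 2 and 3 carried red cell RNA: hemoglobin genes took 3.82% and 3.0% of their reads, against at most 0.405% elsewhere. The summed level of the 8 erythroid markers, 8 of 8 measured and none at 0 throughout, was 603 FPKM (fragments per kilobase, scaled to library size) in T-DC sample 1 and 57900 and 42000 in T-DC samples 2 and 3. It ranged from 99.4 to 5360 in N-mDCs and from 14.5 to 179 in T-mDCs. The 9 neutrophil markers went the same way, from 9.05 in T-DC sample 1 to 4400 and 1540 in samples 2 and 3, against at most 663 in the other groups. T-DC sample 1 correlated with the other T-DC samples at r = 0.836 and 0.808, the lowest of all pairs within a group. T-mDC samples 2 and 3 were the closest pair (r = 0.991), with a chi-square per gene of 1.85 against at least 8.11 for all other pairs, and were kept as separate samples. The cDC label was checked by 5 markers: in every T-DC sample all 5 lay below every sample of the other groups. Itgax, which encodes CD11c, was between 43.0 and 152 FPKM in T-DCs and between 158 and 230 elsewhere, and was not called. Flt3, Zbtb46, Dpp4 and H2-Ab1, the last an MHCII chain and so touched by the gate, were called lower in both comparisons. T-DC sample 1 was the T-DC sample richest in the 8 red pulp macrophage markers, all measured, at 3120 FPKM summed against 1130 and 653, and in the 5 monocyte markers, at 2030 against 1240 and 860. Red pulp macrophage markers summed to between 2060 and 4250 in N-mDCs and between 452 and 1470 in T-mDCs, and monocyte markers to between 990 and 2290 and between 254 and 735. The 6 cDC1 markers summed to 144, 62.8 and 37.5 FPKM in T-DCs, between 234 and 311 in N-mDCs and between 309 and 507 in T-mDCs. The 6 cDC2 markers summed to 443, 208 and 118 in T-DCs, between 417 and 447 in N-mDCs and between 232 and 311 in T-mDCs. In T-DC sample 1 Sirpa alone was at 404. Of the cDC2 markers, Clec4a4, Cd209a and Irf4 were called lower in both comparisons, and Clec10a only against N-mDCs. Itgam was called higher against T-mDCs, and Sirpa was not called. B cell markers summed to between 31.2 and 88.7 in T-DCs, 207 and 283 in N-mDCs and 49.4 and 180 in T-mDCs. Plasmacytoid DC markers summed to between 174 and 243, 372 and 756, and 131 and 231 in the same order of groups. The part of these cell types in the results was not tested.

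The 5 chaperone and degradation genes had their lowest mean levels in T-DCs, and 3 of them were called lower than in N-mDCs. Sdf2l1 and Edem1 were not called in either T-DC comparison, and nor were the sensors and transcription factors. Atf6 also had its lowest mean in T-DCs, at 16.5 FPKM against 16.6 in N-mDCs and 20.2 in T-mDCs. Herpud1 fell 2.74-fold, Dnajb9 2.3-fold and Hspa5 1.78-fold, each with all T-DC samples below all N-mDC samples. Differences were tested with limma on log2(FPKM + 1) and called at an adjusted p (Benjamini-Hochberg over all genes tested) below 0.05. Of the 10 members, T-DCs had 3 called lower and 0 called higher relative to N-mDCs, where 10.3% of all genes tested were called lower, 6.1% higher and 16.4% in either direction. The median log2 fold change was -0.57 over the 10 members and 0.05 over all genes tested. Groups did not overlap for 4 of 10 members, against 32.4% of all genes tested.

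**Figure D1:**
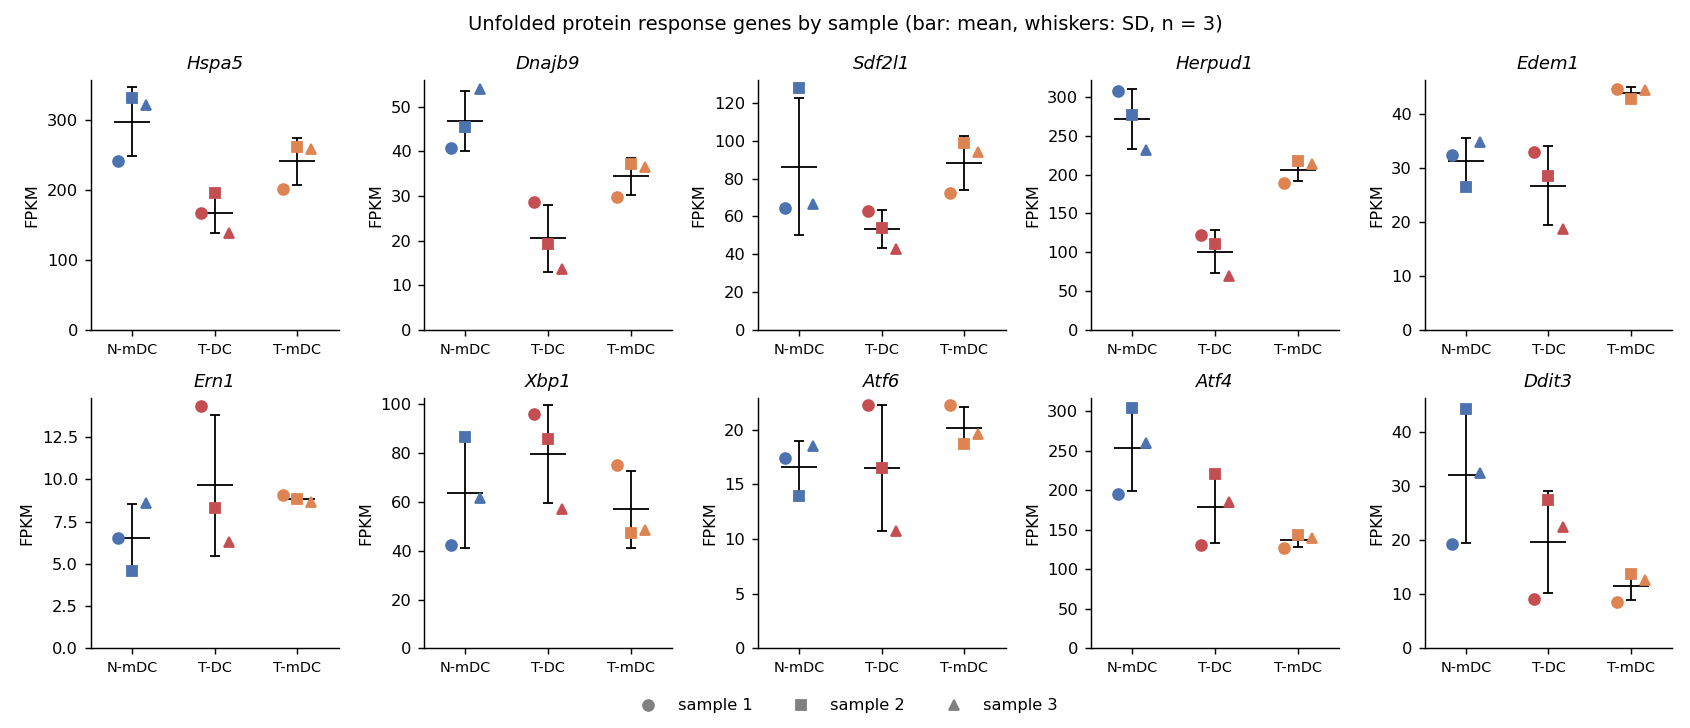
FPKM of the 10 genes in each of the 9 samples, by group on the x axis, with the y axis starting at 0. Symbols are samples, the wide bar is the mean and the whiskers are the SD (n = 3). Herpud1, Dnajb9 and Hspa5 were lower in all T-DC samples than in any N-mDC sample, while Ern1, Xbp1 and Atf6 overlapped between these groups.

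Herpud1 (chromosome 8, bases 94386438 to 94395377 of mm10) encodes an ER membrane protein that helps assemble the degradation machinery. Its level was 307, 277 and 231 FPKM in the N-mDCs (samples in the order 1, 2, 3, as in all such series of values), 122, 110 and 69.5 in T-DCs, and 189, 217 and 213 in T-mDCs. All 3 T-DC samples lay below both other groups, and no groups overlapped. The group means were 272 ± 38.3, 101 ± 27.5 and 207 ± 15.1 FPKM (SD, n = 3). The log2 fold change of T-DCs was -1.46 ± 0.24 (SE) against N-mDCs, with an adjusted p of 0.00617. Against T-mDCs it was -1.07 ± 0.24, with an adjusted p of 0.0219. With the erythroid markers as a covariate, calls among all genes tested fell in both T-DC comparisons. In that fit the Herpud1 difference from N-mDCs was -1.17, with an adjusted p of 0.0634. The difference from T-mDCs was -0.63, with an adjusted p of 0.496. With T-DC samples 2 and 3 left out together, a fit that leaves 1 T-DC sample and assumes that it varies like the other groups, they were -1.14 and -0.75, with adjusted p-values of 0.0388 and 0.087. The difference from T-mDCs also lost its call without either of T-mDC samples 2 and 3, or without T-DC sample 2.

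Dnajb9 (chromosome 12, bases 44205559 to 44210326, minus strand) encodes ERdj4, a co-chaperone of BiP that keeps IRE1 in check. Its level was 40.8, 45.5 and 54.0 FPKM in N-mDCs, 28.6, 19.2 and 13.7 in T-DCs, and 29.7, 37.1 and 36.6 in T-mDCs. T-DC sample 1 was only just below the lowest T-mDC sample, and no groups overlapped. The log2 fold change of T-DCs was -1.2 ± 0.26 (SE) against N-mDCs, with an adjusted p of 0.0181, and -0.77 ± 0.26 against T-mDCs, with an adjusted p of 0.0837. The first lost its call when either N-mDC sample 3 or sample 2 of the T-DCs was left out, and was -0.68 with T-DC samples 2 and 3 left out together, again without a call. With the erythroid markers as a covariate it was -0.8, with an adjusted p of 0.151, in a fit with fewer calls among all genes tested.

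Hspa5 (chromosome 2, bases 34771970 to 34777547) encodes BiP, the main chaperone of the ER lumen, which also holds the sensors inactive. Its level was 241, 331 and 321 FPKM in N-mDCs, 167, 195 and 138 in T-DCs, and 202, 262 and 259 in T-mDCs. T-DCs were the lowest group without overlap, although the highest T-DC sample and the lowest T-mDC sample were close. The log2 fold change of T-DCs was -0.83 ± 0.22 (SE) against N-mDCs, with an adjusted p of 0.0346, and -0.53 ± 0.22 against T-mDCs, with an adjusted p of 0.143. This call was the least secure of the 3: it held in 10 of 23 alternative settings, and leaving out any single N-mDC sample, T-DC sample 2 or 3, or T-mDC sample 2 or 3 ended it. Its size varied less, from -0.98 to -0.5.

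Sdf2l1 (chromosome 16, bases 17130138 to 17132383, minus strand) encodes a partner of BiP and its co-chaperones. Its level was 64.7, 128 and 66.4 FPKM in N-mDCs, 63.1, 54.0 and 42.9 in T-DCs, and 72.3, 98.9 and 93.8 in T-mDCs. T-DCs lay below both groups without overlap, narrowly so against N-mDCs, and N-mDC sample 2 stood high. The log2 fold change was -0.63 ± 0.3 (SE) against N-mDCs, with an adjusted p of 0.163, and -0.72 ± 0.3 against T-mDCs, with an adjusted p of 0.141.

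Edem1 (chromosome 6, bases 108828641 to 108859356) encodes a lectin-like protein that selects misfolded glycoproteins for degradation. Its level was 32.4, 26.5 and 34.8 FPKM in N-mDCs, 32.9, 28.5 and 18.7 in T-DCs, and 44.6, 42.7 and 44.5 in T-mDCs. Here T-mDCs were the high group, above every sample of the others, and T-DCs and N-mDCs overlapped. T-DCs differed from T-mDCs by -0.73 ± 0.22 (SE) on the log2 scale with an adjusted p of 0.0614, and from N-mDCs by -0.24 ± 0.22 with an adjusted p of 0.465.

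**Figure D2:**
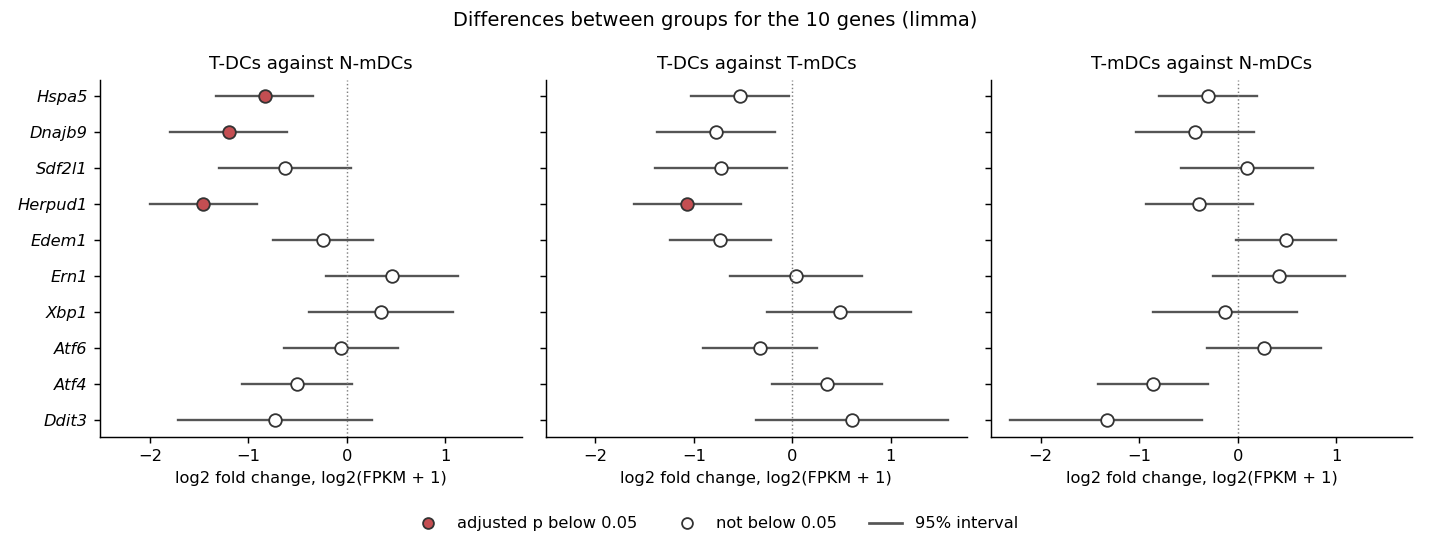
Log2 fold change of log2(FPKM + 1) for each gene in the 3 comparisons, with 95% intervals; filled points have an adjusted p below 0.05. The 5 chaperone and degradation genes lie below 0 in both T-DC comparisons, with 3 filled against N-mDCs and 1, Herpud1, against T-mDCs. No point is filled for T-mDCs against N-mDCs.

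The sensors and their transcription factors showed no called difference in any comparison. Ern1 (chromosome 11, bases 106394650 to 106487852, minus strand) was the lowest member, at 6.52, 4.56 and 8.58 FPKM in N-mDCs, 14.3, 8.29 and 6.31 in T-DCs, and 9.09, 8.81 and 8.67 in T-mDCs. T-DC sample 1 had the highest Ern1 level of the series and T-DC samples 2 and 3 were below all T-mDC samples. The T-DC difference on the log2 scale was 0.46 (95% interval -0.21 to 1.13) from N-mDCs and 0.04 (-0.63 to 0.71) from T-mDCs, and neither was called. Rescaling to TPM (FPKM rescaled to the same total in every sample) gave -0.28 for the second, and moved the median of all genes from 0.068 to -0.228.

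Xbp1 (chromosome 11, bases 5520659 to 5525893), whose spliced form drives much of the ER expansion of secretory cells, stood at 42.2, 86.8 and 61.6 FPKM in N-mDCs, 95.9, 85.7 and 57.3 in T-DCs, and 75.2, 47.2 and 48.5 in T-mDCs. All groups overlapped. T-DCs differed by 0.35 (95% interval -0.38 to 1.08) from N-mDCs, with an adjusted p of 0.47, and by 0.48 (-0.26 to 1.21) from T-mDCs, with an adjusted p of 0.356. Plasma cells express Xbp1 strongly, and the 8 plasma cell markers, all measured, varied within groups: their summed level was 994, 8960 and 1980 FPKM in N-mDCs, 593, 8040 and 4740 in T-DCs and 3180, 189 and 200 in T-mDCs. Most of each sum came from Igkc alone, at 880, 8190 and 1790 FPKM in N-mDCs, 523, 7270 and 4100 in T-DCs and 2730, 134 and 142 in T-mDCs. In every group the sample with the highest sum also had the highest B cell sum, so the sum may not mark plasma cells alone. In N-mDCs and T-mDCs the sample with the highest plasma cell sum also had the most Xbp1, while in T-DCs the sample with the lowest had the most. The part of plasma cell or B cell RNA in the Xbp1 levels was not tested.

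Atf6 (chromosome 1, bases 170704674 to 170867771, minus strand) ranged from 13.9 to 18.5 FPKM in N-mDCs, from 10.7 to 22.3 in T-DCs and from 18.7 to 22.3 in T-mDCs. T-DCs were the most spread group, with sample 1 level with the highest T-mDC sample and sample 3 the lowest of the series. The T-DC difference was -0.06 (95% interval -0.64 to 0.52) from N-mDCs and -0.33 (-0.91 to 0.25) from T-mDCs. Both signs turned with T-DC samples 2 and 3 left out together, to 0.41 and 0.14.

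Atf4 and Ddit3, the PERK arm, had another order, N-mDCs highest and T-mDCs lowest. Atf4 (chromosome 15, bases 80255184 to 80257541), a transcription factor of amino acid supply and stress, was at 196, 304 and 260 FPKM in N-mDCs, 131, 221 and 185 in T-DCs, and 127, 144 and 140 in T-mDCs. T-DCs overlapped both groups, and T-mDCs lay below all N-mDCs. The log2 fold change of T-mDCs against N-mDCs was -0.86 ± 0.25 (SE), with an unadjusted p of 0.00722 in limma and an adjusted p of 0.123. Atf4 is raised mostly through translation, so its RNA level is only part of its regulation.

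Ddit3 (chromosome 10, bases 127290774 to 127296288), a transcription factor tied to cell death under lasting ER stress, was at 19.3, 44.2 and 32.4 FPKM in N-mDCs, 9.09, 27.4 and 22.4 in T-DCs, and 8.50, 13.7 and 12.6 in T-mDCs. T-DC sample 1 was down among the T-mDCs while samples 2 and 3 were among the N-mDCs. The log2 fold change of T-mDCs against N-mDCs was -1.33 ± 0.43 (SE), with an unadjusted p of 0.0132 in limma and an adjusted p of 0.165. The difference of T-DCs from T-mDCs was 0.61 ± 0.43, and it turned to -0.30 with T-DC samples 2 and 3 left out together. Ddit3 overlaps the gene Mars on the opposite strand, and whether the counting used strand is not given in the sources used here.

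The same members taken against T-mDCs gave 1 of 10 called lower, Herpud1, and 0 called higher, where 8.79% of all genes tested were called lower, 5.44% higher and 14.2% in either direction. A further 4, Hspa5, Dnajb9, Sdf2l1 and Edem1, had unadjusted limma p-values below 0.05 and no called difference. Such p-values were common, held by 3833 of all 12746 genes tested. Groups did not overlap for 5 of 10 members, the 5 chaperone and degradation genes, against 34.9% of all genes tested. The median log2 fold change was -0.43 over the members and 0.07 over all genes tested. Both T-DC comparisons share the T-DC samples, so their values are not independent.

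Between the mature cDCs of leukemic and healthy mice, limma called 0 of 10 members, where 2.21% of all genes tested were called. At an unadjusted limma p below 0.05 there were 2, Atf4 and Ddit3, against 2130 of all 12746 genes tested. With voom on the recovered read counts 0 members were called too. Groups did not overlap for 7 of 10 members, against 35.0% of all genes tested, in a comparison where T-mDC samples 2 and 3 were close to each other. Hspa5, Dnajb9 and Herpud1 were lower in T-mDCs by -0.3, -0.43 and -0.39 on the log2 scale, and Edem1 and Ern1 were higher by 0.49 and 0.42, none of them called. With the T-DC samples out of the fit, Atf4 was called.

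Across the 9 samples some members followed each other closely and others did not. Correlations of log2(FPKM + 1) were 0.9 between Hspa5 and Dnajb9, 0.93 between Dnajb9 and Herpud1, and 0.87 between Hspa5 and Herpud1. Atf4 and Ddit3 followed each other at r = 0.98, and Edem1 and Atf6 at 0.88. Ern1 ran opposite to Ddit3, at -0.74, and the highest coefficient of Xbp1 with another member was 0.22. These coefficients describe 9 samples in 3 groups that share library differences. Within T-DCs, 8 of 10 members were lowest in sample 3, and Atf4 and Ddit3 were lowest in sample 1. A single gene took 19.8% of the summed FPKM in sample 3, and its part in these levels was not tested.

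The genes most like Hspa5 over the 9 samples were Fam110a (r = 0.988, Spearman rho 0.983), Gm16094 (0.98 and 0.933), Nfkbib (0.966 and 0.917), Egr3 (0.965 and 0.933) and Csrnp1 (0.96 and 0.933). Nfkbib encodes an NF-kappaB inhibitor and Egr3 an immediate early transcription factor. Xbp1 was most like Ly6e (0.939 and 0.933), Gm7353 (0.929 and 0.933), Mgat1 (0.926 and 0.9), Fcer1g (0.923 and 0.9) and Rab3d (0.921 and 0.8). Mgat1 acts in N-glycan processing in the Golgi and Rab3d in secretory vesicle traffic. Ddit3 was most like Lat (0.972 and 0.967), Slc3a2 (0.971 and 0.967), Gt(ROSA)26Sor (0.965 and 0.95), Nrgn (0.964 and 0.95) and Trbc2 (0.958 and 0.95). Slc3a2 is a subunit of amino acid transporters, and Lat and Trbc2 are T cell genes. The T lineage markers, 8 of 8 measured, summed to 28.9, 95.1 and 84.5 FPKM in N-mDCs, 5.53, 78.8 and 18.1 in T-DCs, and 6.91, 15.8 and 12.6 in T-mDCs, and their part in the Ddit3 levels was not tested.

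The rest of the pathway was taken as 5 lists of 105 genes, 95 of them tested. Against N-mDCs, T-DCs had 8 list genes higher and 4 lower, 12.6% of those tested, where 16.4% of all genes tested were called. Against T-mDCs they had 3 higher and 5 lower, 8.42%, where 14.2% of all genes tested were called. Between the mature groups limma called 0 of 95, with 13 at an unadjusted p below 0.05 and 0 by voom. Of all genes tested, limma called 2.21% there, and 2130 of 12746 had an unadjusted p below 0.05. The split depended on scaling: quantile normalization gave 6 higher and 6 lower against N-mDCs, and against T-mDCs TPM gave 1 and 7, quantile normalization 2 and 9, and voom 2 and 7.

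Most other ER chaperones and folding enzymes were not called. Of 21 genes, all tested, T-DCs had 1 higher and 1 lower relative to N-mDCs, and the median log2 fold change was -0.14. The called share was 9.52%, against 16.4% of all genes tested. Ero1lb, an oxidase that recharges protein disulfide isomerases, was at 13.8, 12.4 and 14.6 FPKM in N-mDCs, 8.65, 5.56 and 3.42 in T-DCs and 10.6, 13.1 and 13.5 in T-mDCs. It was 2.23-fold lower than in N-mDCs (adjusted p of 0.0232) and 2.04-fold lower than in T-mDCs (0.0381). Dnajc10, a co-chaperone with reductase activity, went the other way, from 14.1, 10.6 and 12.0 FPKM in N-mDCs to 22.1, 24.1 and 22.1 in T-DCs, 1.8-fold higher with an adjusted p of 0.00934. In T-mDCs Dnajc10 was at 19.1, 17.4 and 18.1 FPKM, above all N-mDC samples. T-DCs were not called for it against T-mDCs (adjusted p of 0.226). Hyou1, a large ER chaperone, was 1.52-fold lower in T-DCs than in T-mDCs with an adjusted p of 0.0419. The calls of Ero1lb held in 15 and 9 of 23 alternative settings, that of Dnajc10 in 20 and that of Hyou1 in 12.

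Of the 18 genes of ER-associated degradation, all tested, 1 was called against N-mDCs and 0 against T-mDCs, where 2 had an unadjusted p below 0.05. Of all genes tested, 16.4% and 14.2% were called in these comparisons. An unadjusted limma p below 0.05 was held by 4472 and 3833 of 12746. Nploc4, a cofactor of the VCP segregase, was at 18.3, 14.6 and 15.5 FPKM in N-mDCs and 21.7, 29.4 and 36.2 in T-DCs, 1.73-fold higher with an adjusted p of 0.0331. In T-mDCs it was at 21.2, 19.7 and 21.4 FPKM, above all N-mDC samples. The list's median was 0.23 against N-mDCs, on the other side of 0 from Herpud1 and Edem1. Of the genes of ER entry and early secretory traffic, 23 of 25 tested, Ssr3, a subunit of the translocon-associated complex, was 1.75-fold higher (adjusted p of 0.0316) and Sec11c, a signal peptidase subunit, 1.62-fold lower (0.0467) in T-DCs relative to N-mDCs. Ssr3 was at 32.7, 35.9 and 40.6 FPKM in N-mDCs, 80.5, 64.5 and 51.2 in T-DCs and 63.6, 51.4 and 53.8 in T-mDCs, so it was high in both leukemic groups. None of the 23 was called against T-mDCs, with 2 at an unadjusted p below 0.05. Among 10 further sensors and proteases, 7 tested, 0 were called against N-mDCs. At an unadjusted limma p below 0.05 there were 2, Eif2ak3, the gene of PERK, and Atf6b, both lower in T-DCs. Their adjusted p-values were 0.0602 and 0.123, and they were named after their values were seen. T-DCs did not overlap N-mDCs for Eif2ak3, and did for Atf6b. Against T-mDCs 1 was called: Rtcb, the ligase that joins spliced Xbp1 mRNA, was 1.64-fold lower with an adjusted p of 0.0288. Of 23 alternative settings, the call of Nploc4 held in 8, Ssr3 in 10, Sec11c in 9 and Rtcb in 14.

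**Figure D3:**
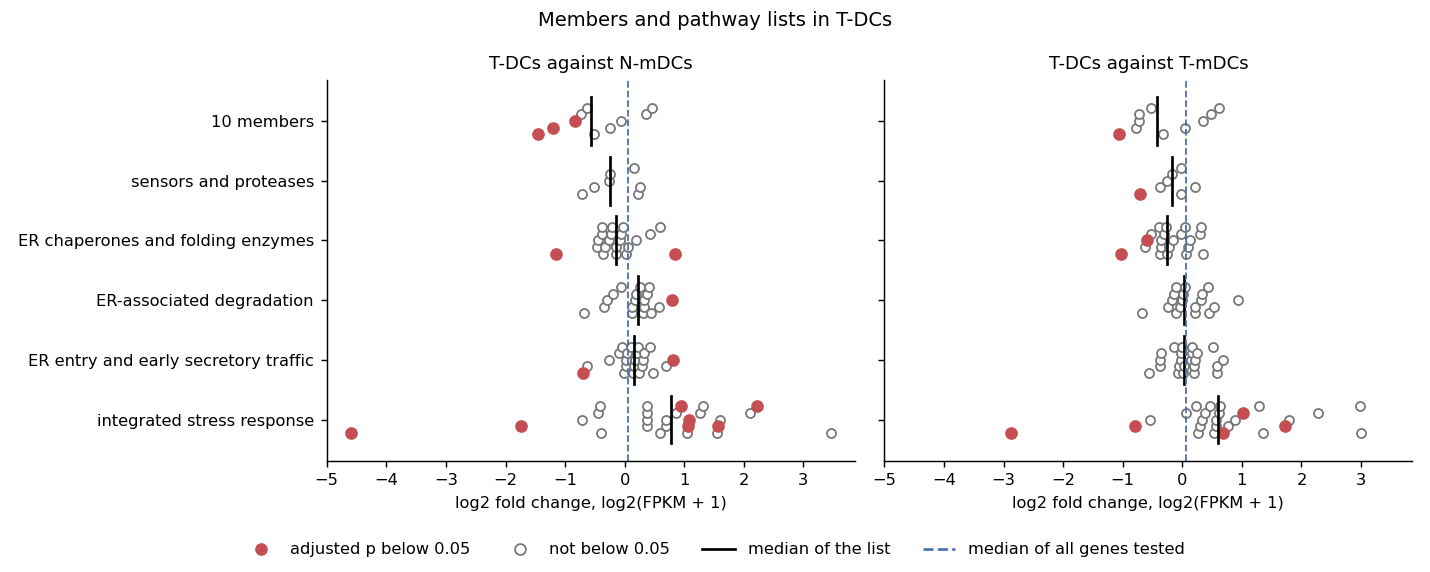
Log2 fold change of log2(FPKM + 1) for the 10 members and for each tested gene of the 5 lists, in T-DCs against N-mDCs (left) and T-mDCs (right). Filled points have an adjusted p below 0.05, black lines are list medians and the dashed line is the median of all genes tested. The integrated stress response list has the widest spread, from -4.6 to 3.46 against N-mDCs.

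The integrated stress response, which lies downstream of PERK and other kinases and works through ATF4, moved in both directions. Of 31 genes, 26 tested, T-DCs had 5 called higher and 2 lower relative to N-mDCs, and 3 higher and 2 lower relative to T-mDCs. The called shares were 26.9% and 19.2%, against 16.4% and 14.2% of all genes tested. The median log2 fold change was 0.79 and 0.6. Atf3, a stress-induced repressor, was at 966, 945 and 895 FPKM in N-mDCs, 77.1, 44.7 and 15.2 in T-DCs and 161, 370 and 382 in T-mDCs. T-DCs were far below both groups, 24.2-fold against N-mDCs (adjusted p of 0.00173) and 7.37-fold against T-mDCs (0.0119).

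Sesn2, a stress-induced inhibitor of growth signalling, was at 46.3, 38.9 and 37.0 FPKM in N-mDCs, 9.74, 11.1 and 13.7 in T-DCs and 16.1, 23.6 and 22.8 in T-mDCs. It was 3.35-fold below N-mDCs, with an adjusted p of 0.00171. The calls of Atf3 and Sesn2 against N-mDCs held in all 23 alternative settings, while that of Atf3 against T-mDCs held in 17. Cebpg, a partner of ATF4 on DNA, went up, from 5.54, 5.94 and 8.06 FPKM in N-mDCs and 8.55, 6.34 and 5.64 in T-mDCs to 16.0, 13.9 and 14.4 in T-DCs, 2.03-fold above T-mDCs with an adjusted p of 0.0128. Eif4ebp1, a brake on cap-dependent translation, was 3.32-fold above T-mDCs (0.00928), and Nupr1, a stress-induced chromatin protein, was 4.67-fold above N-mDCs (0.00853). Nupr1 was at 2.29, 5.14 and 3.24 FPKM in N-mDCs, 31.8, 18.9 and 12.3 in T-DCs and 20.2, 10.6 and 9.75 in T-mDCs. Both leukemic groups thus lay above N-mDCs, and T-DCs overlapped T-mDCs (adjusted p of 0.37). The 3 calls given for Cebpg, Eif4ebp1 and Nupr1 held in 17, 18 and 22 of 23 settings.

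Asns and Slc7a5, of the same list, were high in only a pair of T-DC samples and were not called. They were singled out after their values were seen. Asns, asparagine synthetase, was at 0.755 FPKM in T-DC sample 1 and 47.9 and 91.5 in samples 2 and 3, against at most 1.92 elsewhere. Slc7a5, an amino acid transporter, was at 9.62, 159 and 125 FPKM in T-DCs, against at most 17.2 elsewhere. Their adjusted p-values against N-mDCs were 0.0831 and 0.121. Shmt2, Mthfd2 and Aars, also not called and also picked after their values were seen, were likewise lowest in T-DC sample 1. In T-DCs they were at 12.4, 68.6 and 106 FPKM (Shmt2), 15.9, 61.0 and 66.3 (Mthfd2) and 9.3, 34.3 and 36.6 (Aars). Not all list genes did so: Cebpb, at 931, 262 and 267 FPKM, and Ddit4, at 415, 87.6 and 143, were highest in T-DC sample 1. The samples with high Asns were those with the erythroid and neutrophil RNA given above, and the 7 cell cycle genes stood at 850 and 915 FPKM summed there, against 128 in T-DC sample 1. The part of those cells in the levels of these list genes was not tested. Fewer cells of a type and less RNA per cell cannot be told apart in sorted bulk samples.

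**Figure D4:**
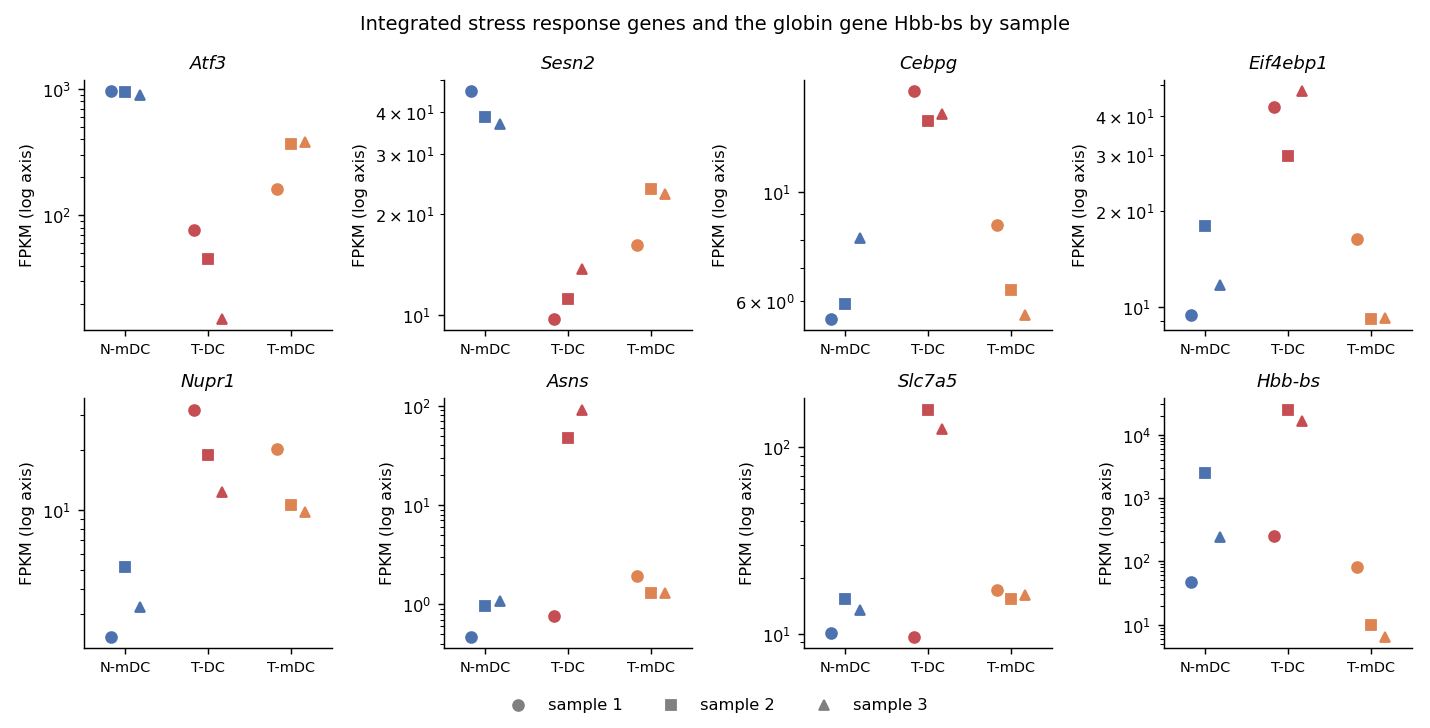
FPKM on log axes of integrated stress response genes and of the globin gene Hbb-bs in the 9 samples, by group on the x axis, with a symbol for each sample number. Atf3 and Sesn2 are lower and Cebpg higher in all T-DC samples than in the other groups, whereas Asns and Slc7a5 are high in T-DC samples 2 and 3, the samples with the highest Hbb-bs.

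The calls of Herpud1, Dnajb9 and Hspa5 against N-mDCs were recomputed under 23 alternatives. Herpud1 stayed called in 22, Dnajb9 in 18 and Hspa5 in 10, and all 3 kept their direction throughout. With the erythroid markers as a covariate none of the 10 members was called against N-mDCs. Calls among all 12746 genes tested fell too, from 2096 to 604. The log2 fold changes of Herpud1, Dnajb9 and Hspa5 were then -1.17, -0.8 and -0.88. The mean log2 level of the erythroid markers was 4.878, 11.16 and 10.96 in T-DCs and at most 6.739 elsewhere. The covariate thus partly followed the groups, and the part of red cell RNA in the lost calls was not tested.

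**Figure D5:**
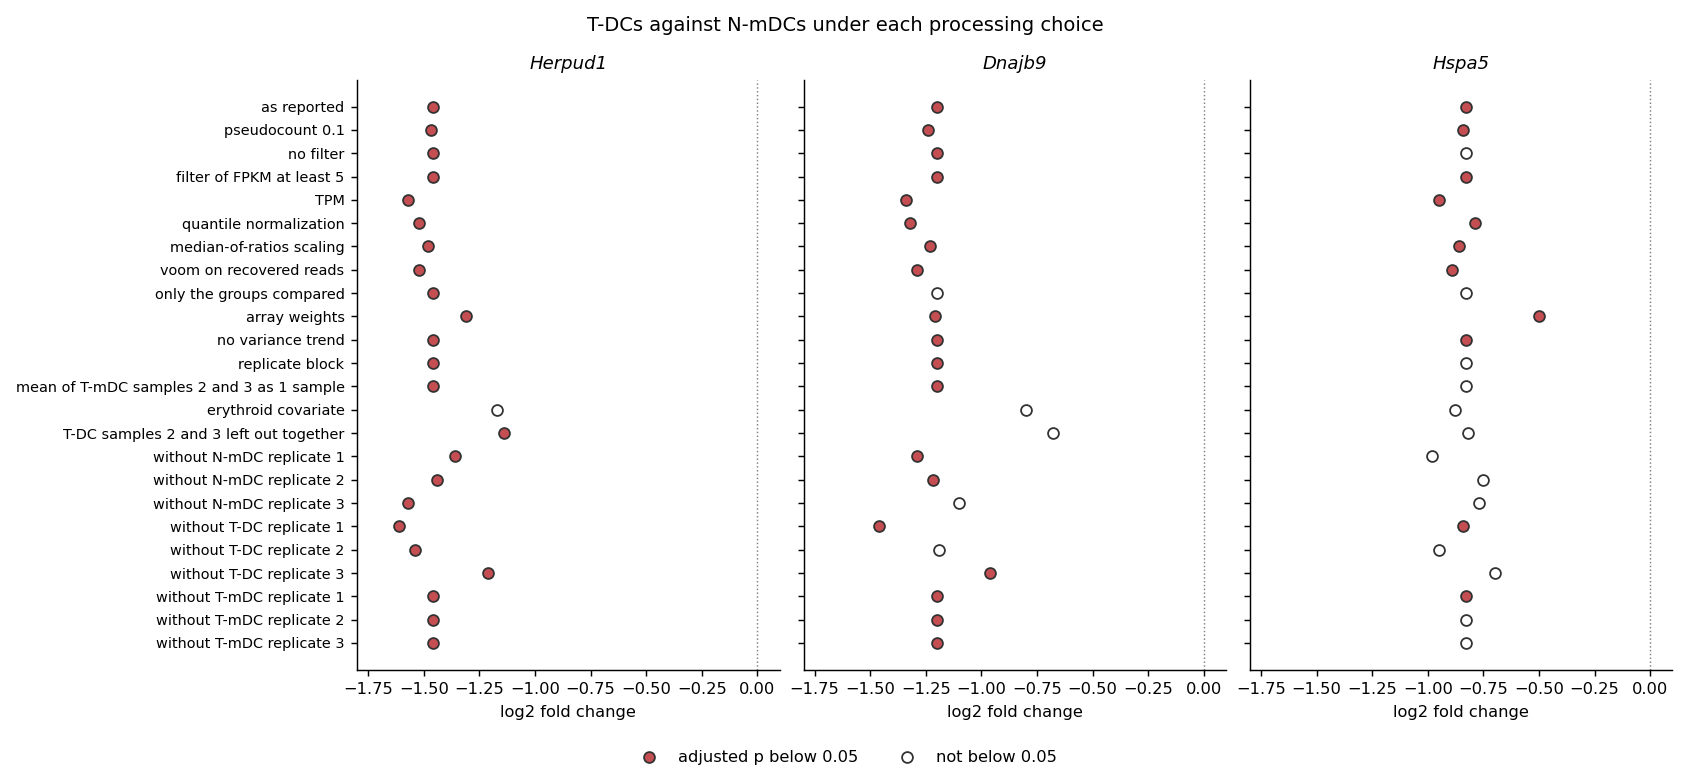
Log2 fold change of Herpud1, Dnajb9 and Hspa5 in T-DCs against N-mDCs as reported and under 23 alternative settings, listed on the y axis; filled points have an adjusted p below 0.05. All points lie below 0, Herpud1 loses its call with the erythroid covariate alone, and Hspa5 is called in 10 of 23.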

How the data were processed

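RNA from sorted spleen DCs was sequenced in 9 samples, with 3 samples in every group. The authors deposited FPKM values per gene, on build mm10 by the submitters' processing notes; the aligner, counter and annotation version are not given in the sources used here. Gene positions matched GENCODE M21 for all members. Multiplying FPKM by gene length and library scale gave whole reads to within 5.77e-05 of a read in every sample, with 15360815 to 18440913 reads on genes. Genes reaching an FPKM of 1 in 3 or more samples were tested on log2(FPKM + 1) with limma 3.58.1 in R 4.3.3, the 3 groups in 1 fit with a variance trend; fold changes on this scale understate those of low genes. Benjamini-Hochberg adjusted p-values below 0.05 were calls. The script was tested on simulated data. The members and lists were chosen with earlier results of these data known. Named in each pathway list and comparison were up to 3 called genes without overlap of groups and with the largest change; for Hspa5, Xbp1 and Ddit3, the 5 tested genes of highest correlation; and any marker gene beside a result. Alternatives changed the pseudocount, filter, scaling, model, covariate and samples.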

Additional observations from a re-analysis of the deposited data

How the results depend on the processing

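Of the 30 member differences, 21 kept their direction in all 23 alternatives and 9 turned sign at least once; the 4 called ones never did. With the erythroid covariate, Edem1 and Atf6 turned to 0.07 and 0.34 (log2) against N-mDCs, and Atf6, Atf4 and Ddit3 to 0.28, -0.34 and -0.75 against T-mDCs. With T-DC samples 2 and 3 left out together the same differences were 0.08, 0.41, 0.14, -0.06 and -0.30. Against T-mDCs, Ern1 was -0.28 in TPM, -0.06 after quantile normalization, -0.11 with voom on recovered reads, -0.07 with array weights and from -0.26 to 0.27 with a sample left out, turning without T-DC replicate 1. Atf6 against N-mDCs ran from -0.29 to 0.20 with a sample left out, turning without N-mDC replicate 3 (0.02) or T-DC replicate 3, and Ddit3 was 0.12 with array weights. Between the mature groups, Sdf2l1 ran from -0.08 to 0.41 with a sample left out, turning without N-mDC replicates 1 and 3 (-0.06), and Xbp1 was 0.09 in TPM, 0.04 after quantile normalization and -0.39 to 0.12 with a sample left out, turning without N-mDC replicate 2. The causes of these turns were not tested.

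Counts of calls are given in the order members, pathway lists, all genes. Against N-mDCs they were 3, 12 and 2096, and became 1, 5 and 1070 with only the groups compared, 1, 6 and 746 with T-DC samples 2 and 3 left out, and 0, 3 and 604 with the erythroid covariate. Against T-mDCs they were 1, 8 and 1813, and became 0, 2 and 1036 with only the groups compared, 0, 0 and 741 with T-DC samples 2 and 3 left out, and 0, 0 and 0 with the covariate. With T-mDC samples 2 and 3 taken as 1 sample, all-gene calls were 1395 against N-mDCs, and the counts against T-mDCs were 0, 0 and 540. Between the mature groups the counts were 0, 0 and 282, and became 1, 4 and 850 with only the groups compared and 1, 4 and 849 with T-DC samples 2 and 3 left out. All-gene calls there were 107 with a pseudocount of 0.1, 111 with a filter of FPKM at least 5, 99 in TPM, 173 with voom (2019 and 1910 in the T-DC comparisons) and 23 with T-mDC samples 2 and 3 as 1. Array weights gave 5, 56 and 8485 against N-mDCs, 9, 75 and 9923 against T-mDCs and 3, 25 and 3841 between the mature groups; their estimation did not converge. Against T-mDCs, no filter gave 0 members and 5 list genes, quantile normalization and voom gave 3 members each, and the filter of FPKM at least 5 gave 1190 genes.

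Leaving out each sample in turn gave 1 to 3 members, 6 to 35 list genes and 980 to 5030 genes against N-mDCs, 0 to 4, 0 to 31 and 541 to 4475 against T-mDCs, and 0 to 2, 0 to 3 and 23 to 1022 between the mature groups. The all-gene counts were highest without T-DC replicate 1. TPM moved the median of all genes to -0.228 against T-mDCs and to 0.235 between the mature groups, and voom the last to 0.129; all-gene calls against T-mDCs were then 376 higher and 1339 lower in TPM and 478 and 1432 with voom, against 693 and 1120, and between the mature groups 49 and 50 in TPM, against 88 and 194. Whether samples of the same number were paired is not given in the sources used here. Correlations of their deviations from the group means ran from -0.475 to 0.269, and those of samples with different numbers from -0.361 to 0.427. With 3 samples in each group, and T-DC sample 1 far from the other T-DC samples, these values cannot decide it. The replicate block gave 7 list genes and 1378 genes against N-mDCs, 4 list genes against T-mDCs and 78 genes between the mature groups. Members called with the block were 2, 1 and 0. Every member had at least 275 reads in each sample.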
